A study of Mus musculus with 8 samples.

Results

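Selenoprotein genes and genes for enzymes that remove superoxide and peroxides, 10 in all, were followed across RNA-seq of the mouse line C3H10T1/2, which consists of mesenchymal stem cells. They were taken by symbol and all 10 were found among the 18605 genes of the gene table. The 10 names are *Selenop*, *Selenom*, *Selenow*, *Gpx1*, *Gpx3*, *Gpx4*, *Txnrd1*, *Sod2*, *Sod3* and *Cat*. They were selected on expression across these same groups, with earlier results of the libraries known, so the fold changes, adjusted p-values and calls given for them describe the fit and are no independent test of the group. The study had 4 groups of 2 libraries. Cells carrying the non-target control (NC) or an shRNA directed at *Nap1l2*, a nucleosome assembly protein gene (KD-Nap1l2), were sampled before induction (0 days). The same kinds of cells were sampled after 7 days in osteogenic medium with dexamethasone, ascorbic acid and β-glycerol phosphate (NC-7d and KD-Nap1l2-7d). All 4 groups are the strain C3H line from embryo tissue after lentiviral transduction, and which of the shRNAs listed in the study's methods was used for the sequencing is not given in the sources used here. Nothing in the labels says that the 2 libraries of a group came from separate cultures, so p-values measure only the spread between these libraries, which may be technical.

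Selenoproteins carry selenocysteine, the selenium analogue of cysteine, at a codon (TGA in DNA, UGA in RNA) that otherwise ends translation. A hairpin in the 3′ untranslated region and a dedicated elongation factor let the ribosome read through it. The supply of selenium can limit how much selenoprotein is made. SELENOP is secreted and carries selenium to other tissues, the glutathione peroxidases GPX1, GPX3 and GPX4 reduce peroxides with glutathione, and TXNRD1 keeps cytosolic thioredoxin reduced. SELENOM lies in the endoplasmic reticulum and SELENOW is a small cytosolic protein. The other 3 are not selenoproteins. SOD2 in mitochondria and SOD3 outside the cell turn superoxide into hydrogen peroxide, which catalase (CAT) in peroxisomes breaks down.

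The feature that defines a selenoprotein gene is in its coding sequence. Its presence in the genes named as selenoproteins follows from that definition and is a description. In the GENCODE vM21 transcript that matched the main RefSeq transcript of each gene (GRCm38), 7 of the 10 genes held a TGA codon inside the reading frame, and each such codon was annotated as selenocysteine. *Selenop* held 10 of them in 381 codons including the stop, the first at codon 59 and the last at codon 377. The 6 other selenoprotein genes held 1 each, at codon 48 of 146 in *Selenom*, 13 of 89 in *Selenow*, 47 of 202 in *Gpx1*, 73 of 227 in *Gpx3*, 73 of 198 in *Gpx4* and 498 of 500 in *Txnrd1*, and *Sod2*, *Sod3* and *Cat* held 0. The stretches below show the coding strand around these codons, 5′ to 3′, with the selenocysteine TGA in capitals. They come from chr15:3274824-3274874 and chr15:3279612-3279707 (+) for *Selenop*, chr9:108339427-108339477 (+) for *Gpx1*, chr10:80054713-80054763 (+) for *Gpx4* and chr10:82896013-82896045 (+) for *Txnrd1*. Those of *Selenom* (chr11:3515062-3516488, +), *Selenow* (chr7:15920350-15922268, -) and *Gpx3* (chr11:54907232-54908542, +) join exons across an intron. In *Txnrd1* the TGA is the third codon from the end and the true stop, taa, follows within the stretch shown.
Selenop, first TGA: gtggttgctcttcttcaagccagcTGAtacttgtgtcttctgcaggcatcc
Selenop, last 5 TGA: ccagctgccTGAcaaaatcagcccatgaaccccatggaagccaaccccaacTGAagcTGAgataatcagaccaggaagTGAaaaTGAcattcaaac
Selenom: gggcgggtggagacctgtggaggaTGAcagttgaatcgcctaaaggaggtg
Selenow: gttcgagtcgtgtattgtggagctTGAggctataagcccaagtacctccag
Gpx1: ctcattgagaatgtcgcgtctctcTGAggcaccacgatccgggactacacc
Gpx3: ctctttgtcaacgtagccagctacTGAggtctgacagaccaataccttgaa
Gpx4: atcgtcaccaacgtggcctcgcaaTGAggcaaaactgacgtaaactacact
Txnrd1: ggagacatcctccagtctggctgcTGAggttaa

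Estimated counts per gene summed to between 17420237 and 19427284 a library after rounding, and 13470 genes were tested with edgeR's quasi-likelihood test, with p-values adjusted over all of them by Benjamini-Hochberg and an adjusted p-value under 0.05 taken as a call. *Nap1l2* (chrX:103184176-103186640, -) had counts of 3 and 3 in NC, 2 and 7 in KD-Nap1l2, 15 and 5 in NC-7d and 7 and 13 in KD-Nap1l2-7d. The libraries labelled KD-Nap1l2 were thus not lower in it, but counts this few neither show nor exclude a knockdown. The study reports the knockdown in this line by Western blot and qPCR. Directions below are between libraries as labelled. Replicates differed by more than sampling noise in every group (chi-square per degree of freedom 15.4 to 77.4), and 964 genes differed by over 2-fold between the KD-Nap1l2 libraries and 990 between the NC-7d libraries, against 496 in NC and 342 in KD-Nap1l2-7d. Summed levels of 10 fibroblast markers were 10632 to 15504 CPM (counts scaled to library size) at 7 days and 19123 to 28280 before, those of 8 osteoblast markers 2091 to 5412 and 1646 to 1831, and those of 9 adipocyte markers 161 to 213 and 61.2 to 116. Chondrocyte, leukocyte, endothelial and epithelial marker sums were 261 to 481, 6.33 to 15.2, 3.75 to 19.96 and 1.79 to 8.79 CPM. The osteoblast sum was almost all *Spp1* (1537 to 1720 CPM before induction, 2026 to 5316 at 7 days), while *Runx2* was at 72.5 to 91.5 CPM before and 53.5 to 64.3 at 7 days and *Alpl* and *Sp7* were under 1 CPM throughout. The adipocyte sum was higher at 7 days through *Fabp4* (4.66 to 15.9 CPM before, 82.6 to 111 at 7 days) and *Pparg* (33.6 to 40.8 and 63.6 to 80.6). *Cebpa* was at 3.94 to 10.8 CPM before and 1.37 to 3.63 at 7 days. *Lpl* was called lower at 7 days than before in KD-Nap1l2, and *Adipoq* was under 1 CPM throughout. With induction, edgeR called 2 and 7 of the 10 fibroblast markers lower in NC and KD-Nap1l2. Of 5 osteoblast markers tested it called 0 in NC (3 at an unadjusted p under 0.05) and 1 higher and 1 lower in KD-Nap1l2. Of 5 adipocyte markers tested it called 2 higher in NC, and 2 higher and 2 lower in KD-Nap1l2. Of all genes tested, 8.21% and 14.2% were called in the 2 inductions. The part of these markers in the results below was not tested, and in bulk RNA fewer cells of a type and less RNA per cell cannot be told apart.

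Per length, the 10 genes spanned 0.04 to 2655 FPKM. Values in FPKM (fragments scaled to transcript length and to library size, as deposited by the authors) allow levels to be compared between genes. In NC, *Gpx4* was highest at 458 ± 21.9 FPKM (SD, n = 2), followed by *Selenop* at 352 ± 62.7, *Selenow* at 185 ± 1.65, *Gpx1* at 119 ± 1.13, *Sod3* at 112 ± 4.57, *Selenom* at 72.7 ± 8.87, *Cat* at 50.8 ± 1.64, *Txnrd1* at 26.2 ± 2.49 and *Sod2* at 18.6 ± 0.969 FPKM. Neighbours in this order did not overlap between libraries. KD-Nap1l2 had nearly the same order, with *Cat* above *Selenom*, but *Selenop*, *Selenow*, *Gpx1* and *Cat* each overlapped the next gene in the order. At 7 days *Selenop* stood first in both groups, at 2447 ± 38.6 FPKM in NC-7d and 2523 ± 186 in KD-Nap1l2-7d, and *Gpx4* second at 725 ± 92.6 and 637 ± 162. Below them *Sod3* and *Selenow* exchanged places between NC-7d (114 and 99.5 FPKM) and KD-Nap1l2-7d (111 and 132 FPKM), while *Gpx1* and *Cat* overlapped in both groups and *Selenom* and *Txnrd1* overlapped in NC-7d. *Gpx3*, the secreted plasma peroxidase, was the lowest in all 8 libraries, between 0.04 and 0.4 FPKM.

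**Figure D1:**
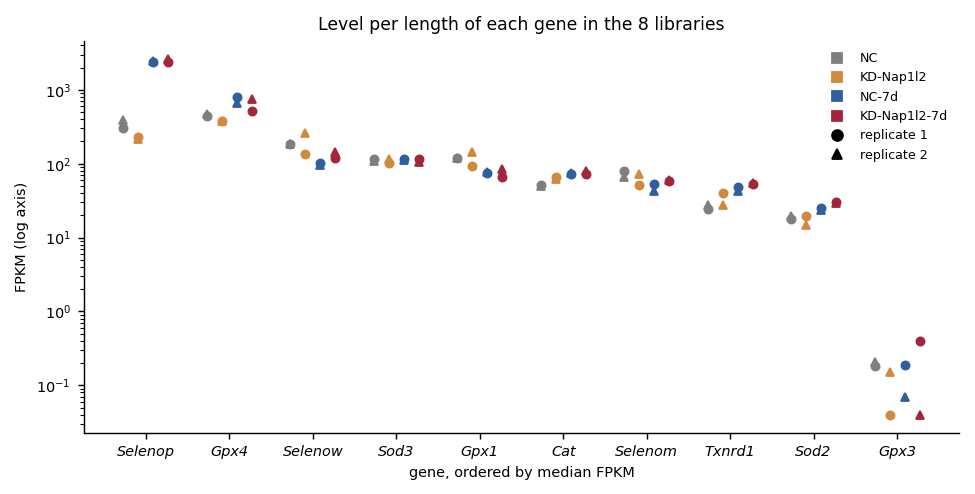
FPKM of the 10 genes (log axis) in the 8 libraries, with colours for the 4 groups and a circle or triangle for replicate 1 or 2. *Selenop* moves from between 219 and 397 FPKM before induction to between 2392 and 2655 FPKM at 7 days, while *Sod3* stays between 104 and 117 FPKM and *Gpx3* lies at 0.4 FPKM or less.

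*Selenop* was the member that changed most with induction. Normalized counts, which are estimated counts scaled to the mean effective library size, were 11509.5 and 14606.5 in NC and 91467 and 89338 in NC-7d. They were 8063 and 8477.5 in KD-Nap1l2 and 88125 and 99113 in KD-Nap1l2-7d. Every 7-day library was above every library taken before induction, and the 7-day libraries of both groups lay close together. The rise was 6.92-fold in NC (log2 fold change 2.79, standard error (SE) 0.18, edgeR adjusted p = 0.000432) and 11.3-fold in KD-Nap1l2 (log2 fold change 3.50, SE 0.18, edgeR adjusted p = 0.000123). *Selenop* took 0.0445% to 0.0804% of all counts before induction and 0.485% to 0.538% at 7 days. Among all genes ranked by FPKM, it moved from between places 177 and 307 to between places 6 and 12. It was called in both inductions under each of the 16 alternative settings, with log2 fold changes from 2.63 to 2.97 in NC and from 3.41 to 3.58 in KD-Nap1l2.

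Before induction *Selenop* was lower in both KD-Nap1l2 libraries than in both NC libraries, at 0.633 of the NC level. The log2 fold change was -0.66 (SE 0.17) and was not called by edgeR (adjusted p = 0.156, 0.00492 to 0.516 over 16 alternatives), while DESeq2 called it. At 7 days the libraries overlapped (log2 fold change 0.05, SE 0.16). The difference between the knockdown contrasts, which is also the difference between the inductions, was 0.71 on the log2 scale (SE 0.23, edgeR adjusted p = 0.639, unadjusted p = 0.0164), so the 2 rises were not shown to differ.

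*Selenop* lies at chr15:3268547-3280508 (+, GENCODE vM21) and the transcript table lists 3 transcripts of it. NM_009155.3 held 95.1% to 99.7% of its estimated counts in every library, NM_001042613.1 held 0% to 4.01% and NM_001042614.1 held 0.195% to 1.10%, so nearly all of the counts at both times were assigned to 1 transcript. A 300-base RefSeq promoter window near the start of NM_009155.3 is shown because this gene moved most (GRCm38.p6, chr15:3270727-3271026, +, from 250 bases before the window's start site). That start site is at 3270977, while the GENCODE model matched to NM_009155.3 starts upstream of it, at 3270921. Capitals mark the letters GTAAACA, which are TGTTTAC (the core read by Foxo factors) on the other strand, at -24 to -18. They also mark TATAAA (the letters of the TATA box) at -10 to -5. Positions are from the window's start site counted as 0, and both matches lie inside the GENCODE model.
Selenop promoter: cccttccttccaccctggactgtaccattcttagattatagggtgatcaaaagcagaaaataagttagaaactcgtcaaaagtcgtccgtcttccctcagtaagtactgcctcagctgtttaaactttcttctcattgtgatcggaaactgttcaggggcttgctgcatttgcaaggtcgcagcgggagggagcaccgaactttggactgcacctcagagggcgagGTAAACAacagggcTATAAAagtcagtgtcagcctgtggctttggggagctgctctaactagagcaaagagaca

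These letters were found in 3.66% and 13.6% of all 32544 promoter windows of this length when both strands were searched, and the match is a description of the sequence. The antioxidant response element letters TGACNNNGC (12.4% of windows) and the GC box letters GGGCGG (35.9%) were not in this window.

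**Figure D2:**
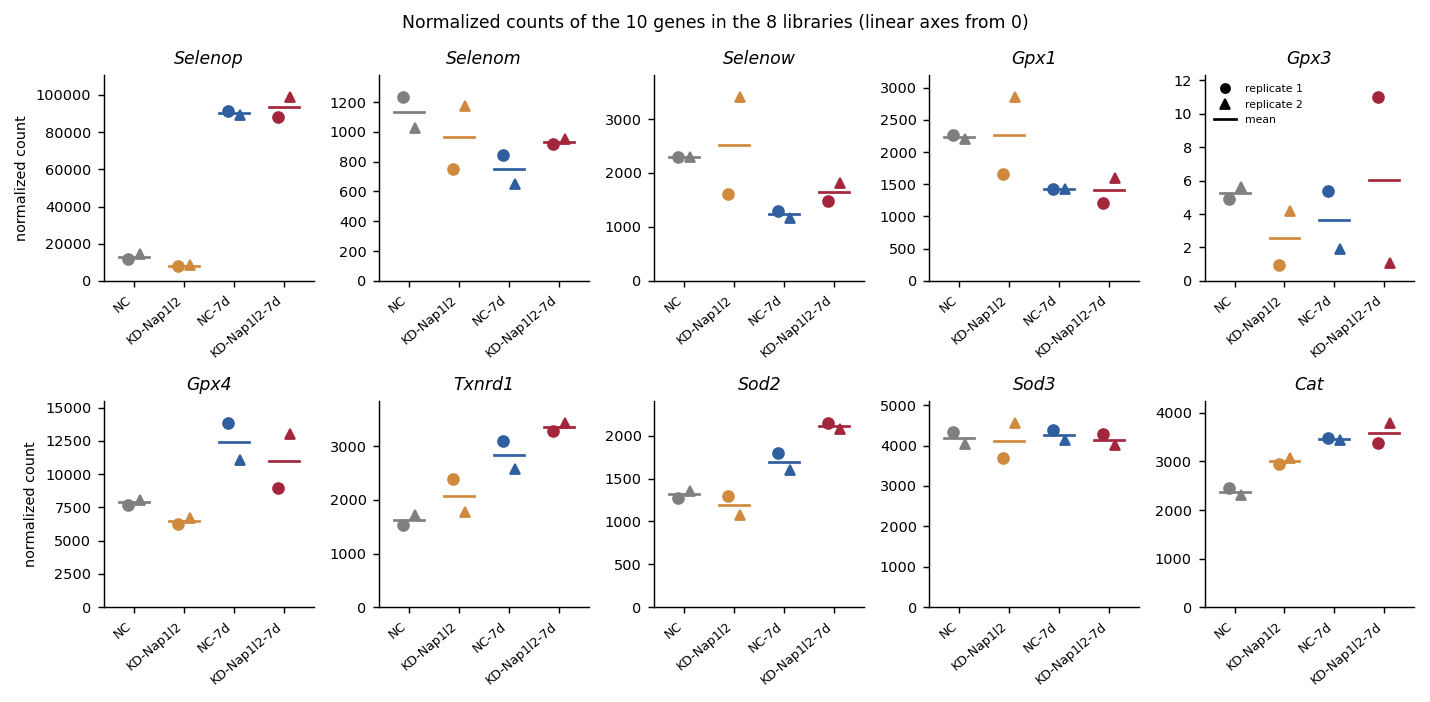
Normalized counts of the 10 genes on linear axes from 0, with 1 panel a gene, 1 symbol a library (circle replicate 1, triangle replicate 2) and a line at the mean of each group of 2. The 7-day libraries lie above the others for *Selenop*, *Gpx4*, *Txnrd1*, *Sod2* and *Cat*, those of *Sod3* all lie between 3683 and 4560.3, and the KD-Nap1l2 replicates are far apart for *Selenow* and *Gpx1*.

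The induction log2 fold changes of *Gpx4* and *Gpx1* had opposite signs. *Gpx4*, which reduces lipid hydroperoxides in membranes, had normalized counts of 7661 and 8074 in NC, 6287 and 6728 in KD-Nap1l2, 13842 and 11039 in NC-7d and 8919 and 13005 in KD-Nap1l2-7d. All 7-day libraries were above all earlier ones, though the KD-Nap1l2-7d replicates lay further apart than the rest. The induction log2 fold change was 0.75 in KD-Nap1l2 (SE 0.20, edgeR adjusted p = 0.0452), which was called, and 0.66 in NC (SE 0.20, edgeR adjusted p = 0.0896), which was not. The call in KD-Nap1l2 held in 7 of 16 alternatives and was lost, among others, without either KD-Nap1l2-7d library. Its transcript NM_008162.3 held 96.8% to 98.6% of the estimated counts.

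*Gpx1*, the cytosolic peroxidase that removes hydrogen peroxide, had normalized counts of 2265 and 2202 in NC and 1420.4 and 1427 in NC-7d, and of 1654 and 2859.8 in KD-Nap1l2 and 1216 and 1601 in KD-Nap1l2-7d. All 7-day values were below all earlier ones, and the KD-Nap1l2 replicates stood apart. The log2 fold changes of -0.65 (SE 0.25) in NC and -0.68 (SE 0.25) in KD-Nap1l2 were not called (edgeR adjusted p = 0.155 and 0.104). Without the KD-Nap1l2 library of replicate 1, both were called, at -0.65 and -1.02, and without that of replicate 2, -0.65 in NC was called and -0.23 in KD-Nap1l2 was not. *Gpx3* had 5 and 6 counts in NC, 1 and 4 in KD-Nap1l2, 5 and 2 in NC-7d and 11 and 1 in KD-Nap1l2-7d. With most libraries near the limit of 3 counts that a count of 0 allows, it did not pass the filter on low counts and was not tested, so 9 of the 10 genes were.

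*Txnrd1*, thioredoxin reductase 1, rose in both inductions. Normalized counts were 1533 and 1727.5 in NC and 3102 and 2574 in NC-7d, with a log2 fold change of 0.80 (SE 0.17, edgeR adjusted p = 0.0314). In KD-Nap1l2 they were 2389 and 1771 before and 3280.2 and 3434.5 after induction, with a log2 fold change of 0.69 (SE 0.17, edgeR adjusted p = 0.0368). At both times the KD-Nap1l2 libraries were above the NC libraries, without a call (log2 fold change 0.35, SE 0.17, edgeR adjusted p = 0.425 before, and 0.24, SE 0.17, adjusted p = 0.803 at 7 days). The induction calls held in 11 of 16 alternatives in NC and 9 of 16 in KD-Nap1l2.

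The shares of the *Txnrd1* transcripts varied between the groups. The transcript table lists 4 of them on chr10:82833951-82897712 (+). In estimated counts, NM_001042513.1 had 682 and 822 in NC, 1494 and 1000.4 in KD-Nap1l2, 1925 and 1693 in NC-7d and 2296 and 2037 in KD-Nap1l2-7d. NM_015762.2 had 728 and 815 in NC, 825 and 671 in KD-Nap1l2, 859.7 and 843 in NC-7d and 888 and 1113 in KD-Nap1l2-7d. The share of NM_001042513.1 in the counts of the gene was 43.8% and 44.5% in NC, and it was higher in the 6 other libraries, at 58.8% to 61.2% in KD-Nap1l2, 63.1% to 66.4% in NC-7d and 61.9% to 70.2% in KD-Nap1l2-7d. These values have no test. The other 2 transcripts held 0.566% to 6.79% (NM_001042523.1) and 1.21% to 8.80% (NM_001042514.1). In the GENCODE models that match them, the 2 main transcripts have the same coding length of 499 codons before the stop and start 28 bases apart. Upstream of the coding sequence, the NM_001042513.1 model has a 107-base exon at chr10:82860524-82860630 that the NM_015762.2 model lacks. At the 3′ end, downstream of the coding sequence, it is shorter, with a last exon of 629 against 1736 bases. The 2 models share most of their bases, so reads from the shared exons were divided between them by the counting program's estimate.

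**Figure D3:**
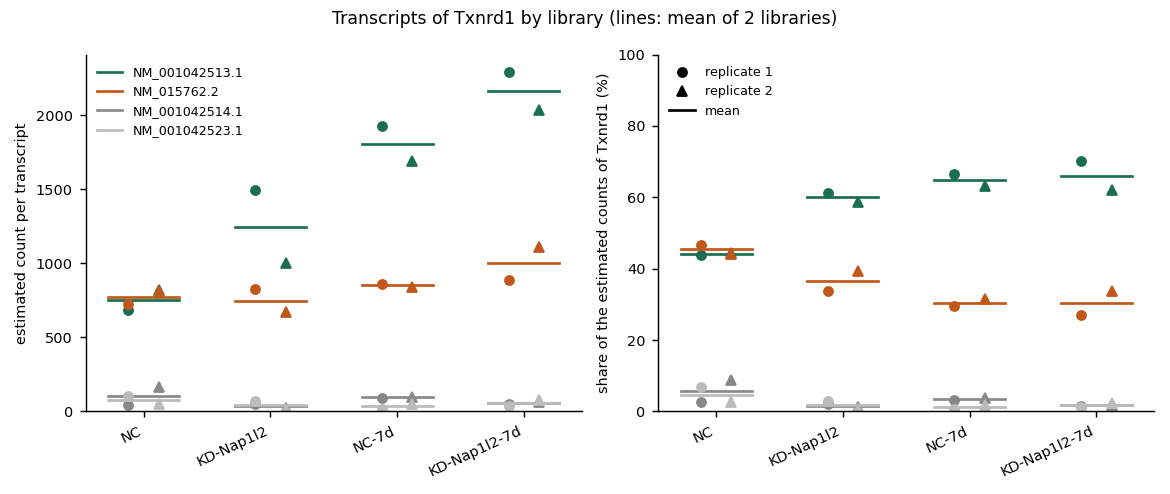
Estimated counts (left, not scaled to depth) and shares in percent (right) of the 4 *Txnrd1* transcripts in the 8 libraries, with a line at the mean of each group of 2. NM_001042513.1 goes from a mean of 44.1% in NC to 60.0% in KD-Nap1l2, 64.7% in NC-7d and 66.0% in KD-Nap1l2-7d, while NM_015762.2 goes from 45.4% to 36.6%, 30.5% and 30.5%.

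Both main transcripts start within the same RefSeq promoter window (chr10:82858956-82859255, +), so the 2 cannot be set apart by promoter sequence. It is shown because, of the 16 windows available for 9 of the 10 genes (*Sod3* had none), it alone held the antioxidant response element letters. These letters, the core bound by NRF2, were found in 12.4% of all 32544 promoter windows, so the match is a description. Capitals mark the GC box letters at -196 to -191 and the antioxidant response element letters, which read GCTTTGTCA on this strand, at -92 to -84.
Txnrd1 promoter: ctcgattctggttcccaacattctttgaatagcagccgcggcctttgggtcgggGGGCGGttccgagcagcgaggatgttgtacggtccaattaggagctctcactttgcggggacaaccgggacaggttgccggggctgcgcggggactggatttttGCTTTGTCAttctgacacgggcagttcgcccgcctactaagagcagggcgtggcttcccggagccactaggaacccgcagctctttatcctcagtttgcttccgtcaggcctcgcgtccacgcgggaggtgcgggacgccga

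*Sod2* was called in 1 of the 2 inductions and *Sod3* in neither. *Sod2* had normalized counts of 1276 and 1353 in NC, 1298 and 1076 in KD-Nap1l2, 1796 and 1597 in NC-7d and 2148 and 2081 in KD-Nap1l2-7d. The highest libraries were those of KD-Nap1l2-7d and all 7-day libraries were above all earlier ones. It was called in KD-Nap1l2 (log2 fold change 0.83, SE 0.13, edgeR adjusted p = 0.00852), under 14 of 16 alternatives, and not in NC (0.37, SE 0.13, adjusted p = 0.139). The difference between these, 0.46 (SE 0.19, edgeR adjusted p = 0.688, unadjusted p = 0.0388), was not called, so the inductions were not shown to differ for *Sod2*. The *Sod2* promoter window held 4 GC boxes, the most of the 16 windows.

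*Sod3*, the extracellular dismutase, had normalized counts of 4342 and 4038 in NC, 3683 and 4560.3 in KD-Nap1l2, 4375 and 4129.5 in NC-7d and 4279 and 4017 in KD-Nap1l2-7d. The groups overlapped in all 4 comparisons, and log2 fold changes ran from -0.04 to 0.02 (SE 0.14 each). *Cat* had 2451 and 2307 in NC, 2944 and 3071 in KD-Nap1l2, 3479 and 3444 in NC-7d and 3378 and 3793 in KD-Nap1l2-7d. The NC libraries were the lowest of the 8, and the 3 other groups lay closer together. The induction log2 fold change was 0.54 in NC (SE 0.12, edgeR adjusted p = 0.0337) and 0.25 in KD-Nap1l2 (SE 0.12, adjusted p = 0.191), a difference of -0.29 (SE 0.17, adjusted p = 0.770). Before induction KD-Nap1l2 was 0.34 above NC on the log2 scale (SE 0.12), without a call (edgeR adjusted p = 0.275).

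The small selenoproteins *Selenow* and *Selenom* were not called in any comparison. *Selenow* had normalized counts of 2299 and 2294 in NC, 1614 and 3414.5 in KD-Nap1l2, 1303 and 1166 in NC-7d and 1478 and 1808 in KD-Nap1l2-7d. The KD-Nap1l2 replicates differed by over 2-fold and enclosed the NC values. Log2 fold changes of induction were -0.90 in NC (SE 0.30, edgeR adjusted p = 0.119) and -0.61 in KD-Nap1l2 (SE 0.30, adjusted p = 0.206). Without the KD-Nap1l2 library of replicate 1 they were -0.90 and -1.06, both called, and without that of replicate 2 the value in KD-Nap1l2 was 0.03. *Selenom* had 1236 and 1025 in NC, 754 and 1176 in KD-Nap1l2, 848 and 653 in NC-7d and 915 and 950.3 in KD-Nap1l2-7d. In NC the libraries did not overlap, with the 7-day values below the others (log2 fold change -0.59, SE 0.22, edgeR adjusted p = 0.156), and the KD-Nap1l2 libraries overlapped (-0.05, SE 0.22).

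**Figure D4:**
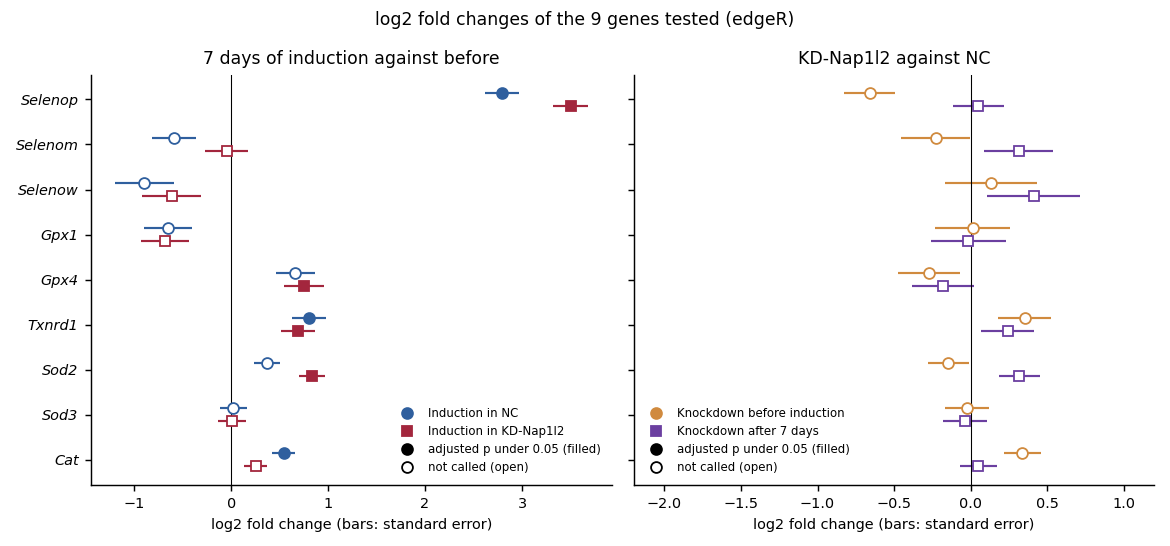
Log2 fold changes with standard errors of the 9 genes tested by edgeR, for 7 days against before (left) and for KD-Nap1l2 against NC (right), filled where the adjusted p-value was under 0.05. The 7 filled symbols are all rises with induction, *Selenop* at 2.79 and 3.50 is the furthest from 0, and none of the knockdown contrasts is filled.

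In counts, induction in NC called 3 of the 9 genes, *Selenop*, *Txnrd1* and *Cat*, all higher, where 8.21% of all genes tested were called (4.83% higher and 3.38% lower). Induction in KD-Nap1l2 called 4 of 9, *Selenop*, *Gpx4*, *Txnrd1* and *Sod2*, all higher, beside 14.2% of all genes (6.84% higher and 7.36% lower). Median log2 fold changes over the 9 were 0.37 and 0.25, and those of all genes tested were between -0.01 and 0. The libraries of the 2 groups did not overlap for 8 and 6 of the 9, beside 57.8% and 61.4% of all genes. Between KD-Nap1l2 and NC, edgeR called 0 of the 9 before induction (0.0817% of all genes) and 0 at 7 days (0% of all genes). At an unadjusted p under 0.05 there were 2 and 1, and DESeq2 called 1 and 0. Libraries did not overlap for 4 and 4 of the 9, beside 43.2% and 42.1% of all genes. The difference between the knockdown contrasts called 0 of the 9 by edgeR and by DESeq2 (0% of all genes by edgeR), with 2 at an unadjusted p under 0.05. Medians in these 3 comparisons were -0.02, 0.05 and 0.09. The induction and knockdown comparisons share groups, and the calls rest on few libraries. Leaving out 1 library at a time gave 1 to 5 called members in either induction, with 1 in both, *Selenop*, when either KD-Nap1l2-7d library was left out. In NC *Selenop* was also the 1 called member without either NC library or without the NC-7d library of replicate 1, and in KD-Nap1l2 there were 2 without either NC library or without the KD-Nap1l2 library of replicate 2.

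Lists of other genes of selenium and redox biology were chosen with earlier results of these data known, so counts from them are a description. They held 147 genes, of which 132 were tested. Induction in NC called 16 of them higher and 4 lower (15.2%, beside 8.21% of all genes tested), and induction in KD-Nap1l2 called 26 higher and 7 lower (25%, beside 14.2% of all genes). DESeq2 called 30 and 39 of them, beside 1555 and 2389 of the 13470 genes. The same shares of all genes stand beside the counts of each list below. EdgeR called 0 in both knockdown contrasts and in the difference between them, where 23, 23 and 16 were at an unadjusted p under 0.05 and DESeq2 called 8, 3 and 3.

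Among 13 further selenoprotein genes tested, 0 were called in NC by edgeR (5 at an unadjusted p under 0.05) and 1 in KD-Nap1l2 (7.69%). That was *Selenoh*, a nuclear selenoprotein, with a log2 fold change of -1.52 (SE 0.30, edgeR adjusted p = 0.0163). It had normalized counts of 513 and 820.1 in KD-Nap1l2 and 205 and 259 in KD-Nap1l2-7d. In NC, without a call, it had 538 and 499 before induction and 192 and 319 at 7 days. The median log2 fold change of this list was -0.22 in NC and -0.17 in KD-Nap1l2. A list of 12 genes covered selenocysteine synthesis, insertion and selenium supply, and also held *Sephs1* and the selenium-binding proteins *Selenbp1* and *Selenbp2*. Of these 12, edgeR called 0 in NC (2 at an unadjusted p under 0.05) and 2 in KD-Nap1l2 (16.7%), which were *Selenbp1* and *Sephs1*. *Selenbp1*, a selenium-binding protein, rose with a log2 fold change of 1.28 and *Sephs1*, a relative of selenophosphate synthetase, fell with -0.69, a call that held in 7 of 16 alternatives (edgeR adjusted p = 0.0437, up to 0.215).

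Of 26 genes for thioredoxins, peroxiredoxins and their partners, 3 rose and 1 fell in NC, and 5 rose and 1 fell in KD-Nap1l2 (15.4% and 23.1%). *Prdx6*, a peroxiredoxin that uses glutathione, rose most, by 2.22 in NC and 2.40 in KD-Nap1l2 on the log2 scale, from 1417 to 2084 normalized counts before induction to 7122 to 9934 at 7 days. The glutaredoxin *Glrx* rose by 0.74 and 0.97 and *Sesn3*, a sestrin, fell by 0.57 and 1.02. *Sesn1*, another sestrin, rose by 1.09 and 0.75, and *Srxn1*, which repairs oxidised peroxiredoxins, rose by 0.93 in KD-Nap1l2.

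The glutathione list had 28 genes tested, with 4 higher and 2 lower in NC and 7 higher and 1 lower in KD-Nap1l2 (21.4% and 28.6%). *Gclc*, the catalytic subunit of the rate-limiting enzyme of glutathione synthesis, had 444 and 571 normalized counts in NC and 3401 and 3569 in NC-7d, and 785 and 570.3 in KD-Nap1l2 and 4674 and 4886 in KD-Nap1l2-7d. It rose by 2.78 and 2.82 on the log2 scale, a size like that of *Selenop* in NC. The microsomal transferase *Mgst1* rose by 2.29 and 2.39. *Gsto1* rose by 1.31 and 0.92, and *Gsr*, glutathione reductase, by 1.14 in KD-Nap1l2. In NC *Gsr* had 359 and 506 normalized counts before induction and 863 and 616 at 7 days. The transferases *Gstt1* (-1.24 and -1.57) and, in NC, *Gstt3* (-0.92) fell. *Gsta3* also rose, by 3.20 and 4.33, at 53.5 normalized counts or fewer in every library. It was named after its values were seen.

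NRF2, with its inhibitors and targets outside the lists above, gave 27 tested genes, with 7 higher and 0 lower in NC and 9 higher and 0 lower in KD-Nap1l2 (25.9% and 33.3%). Log2 fold changes of this list had medians of 0.42 and 0.37. *Slc48a1*, a haem transporter, rose by 1.30 and 1.53, *Pgd* and *G6pdx*, which make NADPH in the pentose phosphate pathway, rose by 1.19 and 1.15 in NC and by 1.09 and 0.98 in KD-Nap1l2. *Aox1* rose by 1.02 and 1.76, and *Abcc4* by 1.65 in KD-Nap1l2. In NC *Abcc4* had 166 and 287 normalized counts before induction and 815 and 486 at 7 days. Of 17 tested genes for enzymes that produce oxidants, 2 rose in NC, and 4 rose and 2 fell in KD-Nap1l2 (11.8% and 35.3%). *Cybb*, the catalytic subunit of the phagocyte NADPH oxidase, had 60.1 and 136 normalized counts in NC, 6.85 and 6.24 in KD-Nap1l2, 792 and 441 in NC-7d and 698 and 527 in KD-Nap1l2-7d. It rose by 2.64 and 6.52 on the log2 scale, and the difference of 3.88 (SE 0.72) was not called by edgeR (adjusted p = 0.403). *Maoa*, which gives off hydrogen peroxide as it oxidises amines, rose by 1.13 and 1.40. In KD-Nap1l2 *Xdh* rose by 2.04, while *Aoc3* (-2.68) and *Pxdn* (-0.98) fell. In NC *Xdh* had 10873 and 16891 normalized counts before induction and 26810 and 20152 at 7 days. *Aoc3* overlapped in NC, with 1903 and 974 before and 639 and 1193 at 7 days. Of 9 Foxo factors and other regulators of *Sod2* and *Cat*, 1 was called in each induction (11.1%), *Ppargc1a* (-2.01) in NC and *Foxo6* (-2.18) in KD-Nap1l2. *Foxo6* averaged 47.2 normalized counts and was named after its values were seen. In NC *Foxo6* had 56.1 and 35.5 before induction and 23.5 and 12.5 at 7 days.

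Some of these calls were lost under several alternatives. In NC the call held in 8 of 16 for *Sesn3*, 9 for *Gstt3*, 10 for *Slc48a1* and 10 for *Ppargc1a*, and in KD-Nap1l2 in 10 for *Srxn1* and 11 for *Abcc4*.

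With 0 calls, the gene of largest size in each list is given for the 2 knockdown contrasts, without a change being shown. Before induction these were *Dio2* (log2 fold change -3.25), *Lrp2* (1.61), *Msrb2* (-1.04), *Slc7a11* (1.81), *Maff* (0.86), *Cybb* (-3.88) and *Ppargc1a* (-2.01), with edgeR adjusted p-values from 0.0736 to 0.585. At 7 days they were *Dio2* (-0.41), *Lrp2* (1.79), *Sesn2* (1.04), *Slc7a11* (2.11), *Maff* (1.17), *Aoc3* (-1.72) and *Ppargc1b* (-0.68), with adjusted p-values from 0.469 to 0.949. For induction in NC, the lists with 0 calls had *Dio2* (-1.92) and *Lrp2* (-1.27). *Dio2* and *Lrp2* averaged only 15.3 and 5.74 normalized counts. Under the alternatives, some of the knockdown values were called. Before induction these were *Cybb* in 4 of 15, *Ppargc1a* in 3 of 16, *Dio2* in 1 of 15 and *Maff* in 1 of 16. At 7 days *Aoc3* was called in 1 of 16, and the other genes named for these contrasts were not called in any.

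**Figure D5:**
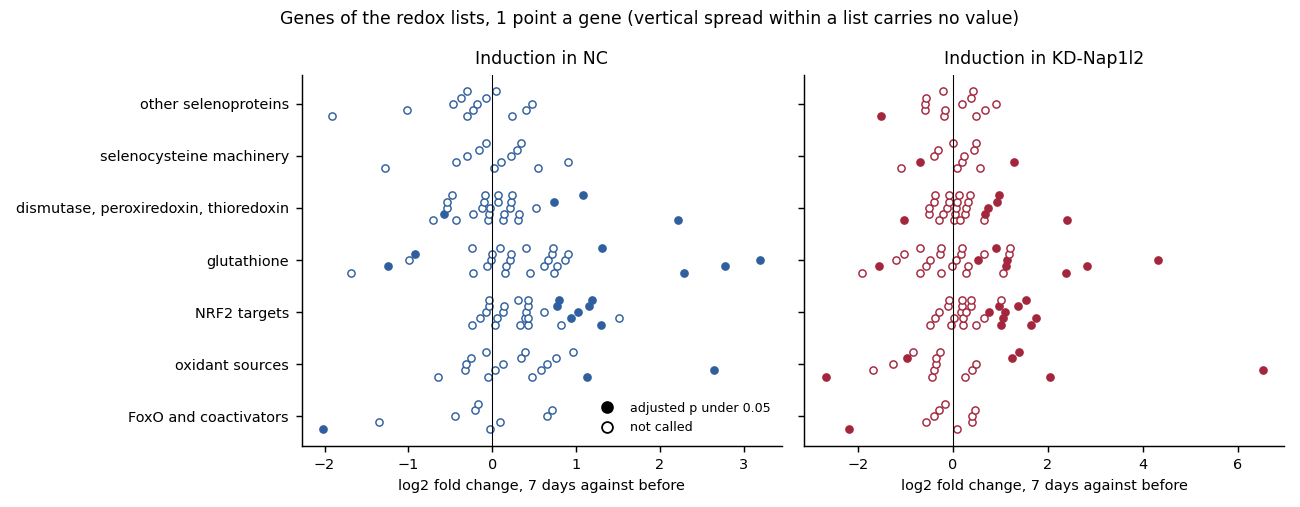
Log2 fold changes of the tested genes of the 7 lists, 1 point a gene, for induction in NC (left) and in KD-Nap1l2 (right), filled where the edgeR adjusted p-value was under 0.05. Filled points lie on the right for the NRF2 list in both panels, and *Cybb* at 6.52 is the rightmost point in KD-Nap1l2.

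The genes whose levels followed those of a member most closely were sought for the 3 members with the widest range of group means, among 11271 other genes with at least 50 normalized counts on average. For *Selenop* they were *Hif3a* (Pearson's r = 0.997), *Clca3a1* (0.997) and *Cdo1* (0.996), for *Txnrd1* they were *Nploc4* (0.994), *Akt1* (0.992) and *Ppm1f* (0.983), and for *Selenow* they were *Mif* (0.990), *Fam162a* (0.988) and *Ankrd37* (0.987). Each r is over log2 CPM in the same 8 libraries, which fall into 4 groups and share the contrast of 7 days against before, so it is a description.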

How the data were processed

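RNA-seq of C3H10T1/2 cells in 4 groups of 2 libraries was analysed from the deposited tables, with groups taken from the labels. Estimated counts of genes and of transcripts, not normalized, were deposited by the authors for every library, with fractional counts in 41.1% of the genes. The deposited tables also give FPKM, a unit identified from the values, in which counts are scaled to length and to the reads of the library. The submitters' processing notes name BWA, Bowtie2, RSEM and the build GRCm38.p6, without versions or roles. Reads shared between transcripts or near-identical copies were thus divided by an estimate. Deposited tables of the authors' own comparisons hold fold changes, p-values and q-values and were not used.

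Estimated counts were rounded and scaled by TMM, filterByExpr kept 13470 of 18605 genes, and all 8 libraries were fitted in edgeR 4.0.16 (R 4.3.3) with the quasi-likelihood test. Standard errors were taken as the size of the log2 fold change over the root of its F statistic. Totals of 17420237 to 19427284 counts limit precision mainly for genes with few counts. A count of 0 allows up to 3 counts, which covers counting error only. With 2 libraries a group, no exact test between single values can reach 0.05, so none is given. Alternatives were RLE size factors, DESeq2 1.42.0, no filter, a minimum of 10 counts per library, a fit of the compared libraries alone, a block for the replicate number, limma 3.58.1 with FPKM on the log2 scale after adding 1 or 0.1, a minimum fold of 2, leaving out each library, and, for the order of levels, FPKM summed over transcripts. The fits were tested on simulated data. The member genes and the lists were chosen with earlier results of these data known. Named besides the members and *Nap1l2* were, for each list and comparison, the up to 3 largest rises and falls called among genes averaging 50 or more normalized counts, or otherwise the gene of largest size, and 3 genes of like pattern for each of 3 members. Markers of other cell types were summed as CPM.

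RefSeq transcripts were matched to GENCODE vM21 models through GENCODE's table. Coding sequences and gene coordinates come from GENCODE vM21 (GRCm38) and promoter windows from RefSeq (GRCm38.p6), the build of the files. Protein sequences were not used here. Python 3.11.15 and matplotlib 3.10.9 were used for these steps and for figures.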

Additional observations from a re-analysis of the deposited data

How the results depend on the processing

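*Selenop* kept its call in both inductions under all 16 alternatives. The order of the 10 genes by FPKM kept all 10 places in each group with FPKM summed over transcripts. For members over 1 FPKM that sum was 0.9996 to 1.0002 of the FPKM of the gene. The order could thus hardly move, and its staying the same is no check of it. The number of members called in NC was 5 with DESeq2 and 1 with a fold of at least 2. In KD-Nap1l2 it was 2 when the compared libraries were fitted alone, 2 with limma on log2(FPKM + 1) and 1 with a fold of at least 2. DESeq2 called 1 member, *Selenop*, before induction. Leaving out 1 library at a time gave 1 to 5 called members in NC and 1 to 5 in KD-Nap1l2. Such refits assume that the lone library of a group varies like the other groups. The cause of these changes was not tested, except that a minimum fold can only remove calls. Over all genes, DESeq2 called 1555, 2389, 460, 79 and 98 genes in the 2 inductions, the 2 knockdown contrasts and their difference, where edgeR called 1106, 1912, 11, 0 and 0, and a fold of at least 2 left 669 and 1039 in the inductions. Among the contrasts with calls in the main edgeR fit, the knockdown before induction moved most as a ratio. It had 160 genes without a filter, 4 with at least 10 counts in every library, 0 when the compared libraries were fitted alone, and 33 and 18 with limma. Without 1 library, induction gave 122 to 1490 calls in NC (122 without the NC library of replicate 1) and 305 to 2218 in KD-Nap1l2 (305 and 330 without either KD-Nap1l2-7d library).

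The replicate numbers did not pair the libraries, as the correlation of same-numbered deviations ran from -0.06 to 0.10 over the 6 pairs of groups. With the replicate block, 3 members were called in NC and 3 in KD-Nap1l2 (*Gpx4* was not), and 961, 1757, 4, 0 and 0 genes of all.

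Of 711 member values under alternatives, 33 changed sign, none of them called, and all at most 0.51 in size. For *Gpx1* before induction the value was -0.0254 with the replicate block, -0.0315 with limma on log2(FPKM + 1) and -0.032 with limma on log2(FPKM + 0.1), and for *Sod3* in KD-Nap1l2 it was -0.00653 with at least 10 counts in every library. Leaving out 1 library gave, for *Sod3*, -0.0289 to 0.0735 (induction in NC), -0.14 to 0.17 (induction in KD-Nap1l2), -0.19 to 0.12 (knockdown before), -0.0821 to 0.00579 (at 7 days) and -0.16 to 0.15 (difference). For *Gpx1* it gave -0.43 to 0.36 (before), -0.23 to 0.17 (at 7 days) and -0.37 to 0.42 (difference), and for *Gpx4* -0.49 to 0.064 (at 7 days) and -0.21 to 0.34 (difference). *Selenow* gave -1.06 to 0.0268 (induction in KD-Nap1l2), -0.51 to 0.57 (before) and -0.16 to 0.92 (difference), and *Selenom* gave -0.33 to 0.31 (induction in KD-Nap1l2) and -0.59 to 0.0578 (before). At 7 days *Selenop* gave -0.0435 to 0.13 and *Cat* -0.0417 to 0.13, and *Txnrd1* gave -0.31 to 0.12 for the difference. Among genes with few counts, *Lrp2* gave -2.09 to 0.64 (induction in NC) and -3.72 to 2.75 (at 7 days), and *Dio2* -1.05 to 0.67 (at 7 days). *Maff*, which averaged 309 normalized counts, gave -0.82 to 1.62 (before). Its KD-Nap1l2 libraries lay far apart, at 113 and 611 normalized counts.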
